A study of Mus musculus with 2 samples.

Results

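Gdf15, Cd83, Tnfsf9, Nfkbia, Tnfaip3, Plau, Sdc4, Gem, Rgs1 and Mir155hg are 10 of the 32285 genes counted in CD45+ cells of infarcted neonatal mouse hearts. They were chosen by name because of their level in 1 activated macrophage state in these same cells. When these genes were allowed into the clustering, 7 of the 10 were among the leading genes of 1 macrophage-like cluster. The level of the 10 genes in the state is therefore given as a description, with no test. All 10 were found by symbol in both libraries, and the text follows them over macrophage subsets, monocytes and neutrophils.

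Most of these genes are known targets of NF-kB, a family of transcription factors held in the cytoplasm by IkB proteins. When a cell senses microbial products, cytokines or damaged tissue, a kinase complex marks IkB for destruction and the NF-kB dimer enters the nucleus. The first genes it switches on include its own inhibitors, so the response limits itself. In macrophages the programme covers cytokines, chemokines, surface co-stimulators and survival genes, and macrophages of the injured heart are a known source of such signals.

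The series asked what LYVE-1, a hyaluronan receptor, does in macrophages of the injured neonatal heart. One library came from 5 pooled wild-type (WT) hearts and the other from 5 pooled Lyve1 knockout (KO) hearts, in which the gene is deleted throughout the animal. All mice had a myocardial infarction at postnatal day 2, and their hearts were collected 7 days after it, when the mice were 9 days old. Live cells were sorted as 7AAD-negative and CD45+, and their RNA was read from the 5′ end on the 10x Chromium platform. With 1 library per genotype, a difference between WT and KO cannot be told apart from a difference between the pools or the libraries, no test between genotypes was possible, and every interval given covers counting error only.

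After filtering, 4187 WT and 3391 KO cells remained, with a median of 11110 and 12860 unique molecular identifiers (UMIs, each standing for 1 captured RNA molecule) per cell. Lyve1 itself, the targeted gene, stood at 246.7 CPM (UMIs of the gene per 1000000 UMIs) over all WT cells and at 13.12 CPM over all KO cells. The libraries shared 9 cell barcodes. Clusters were built without the 10 genes, so the classes below do not depend on them, and were named from markers. All 13 macrophage markers were detected in the macrophage-like class (1262 WT and 663 KO cells). Its clusters were named CCR2- (1049 and 467 cells) or CCR2+ (213 and 196 cells) by the nearest marker list. Ccr2 was among the CCR2+ markers, but cells were not split by their own Ccr2 count. The largest CCR2- cluster held Ccr2 at 49.12 CPM (WT) and 97.18 CPM (KO). In CCR2- cells Ccr2 stood at 38.65 CPM (WT) and 55.31 CPM (KO), against 594.8 and 746.3 CPM in CCR2+ cells. All 14 monocyte and all 15 neutrophil markers were likewise detected in the monocyte-like (415 and 450 cells) and neutrophil-like (351 and 337 cells) classes. Detected means at least 1 UMI in the class, and macrophage-like cells passed this for both lists. Macrophage markers summed to 33670 (WT) and 27710 CPM (KO) in macrophage-like and 3985 and 3230 CPM in monocyte-like cells. Neutrophil markers summed to 131600 and 160900 CPM in neutrophil-like and 1590 and 810.8 CPM in monocyte-like cells. Monocyte markers summed to 7276 and 7552 CPM in monocyte-like, 6304 and 6917 CPM in neutrophil-like and 385 and 835.6 CPM in macrophage-like cells.

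Mir155hg is the host RNA of microRNA 155, whose mature strand represses many messenger RNAs in activated myeloid cells. The hairpin lies inside an exon of Mir155hg on the plus strand, at chr16:84714140-84714204 (GRCm38), and had no row of its own in the counts, so the values below are of the host RNA and not of the microRNA. Its sequences, from RefSeq on GRCm38.p6, are shown because the product of this member is the microRNA. In the mature strands the capitals mark the seed, bases 2 to 8, which pairs with targets, and in the hairpin they mark the 5p strand. The 5p and 3p strands have different seeds.
mmu-miR-155-5p: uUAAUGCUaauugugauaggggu
mmu-miR-155-3p: cUCCUACCuguuagcauuaac
microRNA 155 hairpin: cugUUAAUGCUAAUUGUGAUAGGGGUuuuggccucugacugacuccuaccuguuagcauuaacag

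Promoter sequence was at hand for 5 of the 10 members (Nfkbia, Tnfaip3, Sdc4, Gdf15 and Mir155hg), in 7 windows of 250 bases before a RefSeq start on GRCm38.p6. The letters GGG, any 3 bases and TTCC, in that order and with nothing between, a short form of the site NF-kB is known to bind, were searched on both strands. They occurred in 4 of the 7 windows, belonging to 3 members, and in 4.648% of all 32851 windows of that length. The windows with a match are printed in the direction of the gene to show where these letters stand, as the 150 bases that end at the start, with the match in capitals. The Nfkbia match lay 29 to 20 bases before the start, the Sdc4 match 82 to 73 bases before it, and the Tnfaip3 matches 12 to 3 bases before the upstream start and 90 to 81 bases before the downstream start.
Nfkbia promoter, chr12:55492648-55492797, minus strand: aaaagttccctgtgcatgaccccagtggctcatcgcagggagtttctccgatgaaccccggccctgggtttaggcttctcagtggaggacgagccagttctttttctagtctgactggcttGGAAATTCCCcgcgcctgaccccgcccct
Sdc4 promoter, chr2:164443189-164443338, minus strand: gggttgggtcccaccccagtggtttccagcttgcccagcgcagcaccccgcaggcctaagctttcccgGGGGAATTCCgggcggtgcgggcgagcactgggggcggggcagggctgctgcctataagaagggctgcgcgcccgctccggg
Tnfaip3 promoter, upstream start, chr10:19015411-19015560, minus strand: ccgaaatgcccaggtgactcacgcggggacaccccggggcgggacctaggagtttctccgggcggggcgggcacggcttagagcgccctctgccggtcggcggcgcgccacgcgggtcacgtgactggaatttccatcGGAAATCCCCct
Tnfaip3 promoter, downstream start, chr10:19011964-19012113, minus strand: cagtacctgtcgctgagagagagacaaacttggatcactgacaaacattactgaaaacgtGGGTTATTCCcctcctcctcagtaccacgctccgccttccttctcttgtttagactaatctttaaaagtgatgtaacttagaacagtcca

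The windows of Gdf15 and Mir155hg did not hold these letters. The AP-1 letters TGANTCA occurred in 1 of the 7 windows, that of the upstream Tnfaip3 start, and in 6.749% of all windows. The letters TGATGNAA, known from targets of ATF4 and CHOP, occurred in 1, that of the downstream Tnfaip3 start, against 3.452% of all windows. The cyclic AMP response letters TGACGTCA occurred in 0 of the 7 and in 1.546% of all. A match is a description of letters and not of a bound site.

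Where a pair of values is given, WT comes first. Levels were taken as the summed UMIs of a class over all UMIs of its cells, in CPM, with an exact 95% Poisson interval. Shares of cells with at least 1 UMI of a gene were taken after each cell was thinned to 5000 UMIs, since macrophage-like cells were deeper (medians of 24150 and 27290 UMIs) than monocyte-like (18310 and 21200) and neutrophil-like cells (7656 and 7946). All 10 members were at a higher level in macrophage-like than in monocyte-like cells in both libraries. In neutrophil-like cells 8 of the 10 were at a low level, and the exceptions were the NF-kB inhibitors Nfkbia and Tnfaip3.

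Gdf15 (ENSMUSG00000038508, chr8:70629393-70632456, minus strand, GRCm38) encodes a secreted stress cytokine. Its level in macrophage-like cells was 145.9 CPM (141.8 to 150.1) and 164.7 CPM (159.1 to 170.4). In monocyte-like cells it was 7.328 and 5.451 CPM, and 1 UMI was counted in the neutrophil-like cells of each library. Gdf15 was thus mainly a macrophage transcript among these CD45+ cells. It was found in 16.95% of WT and 19.1% of KO macrophage-like cells thinned to 5000 UMIs, and in 26.55% and 30.17% before thinning. The background was low, since 1 of the KO B cell-like cells (0.2252%) and 0 of 171 WT and 0 of 277 KO T cell-like cells had a Gdf15 UMI after thinning, which allows shares of up to 1.754% and 1.083%. Within macrophage-like cells the level was higher in CCR2- cells (163.5 and 211.6 CPM) than in CCR2+ cells (55.51 and 53.5 CPM) in both libraries.

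Cd83 (chr13:43784775-43803132, plus strand) and Tnfsf9 (chr17:57105325-57107757, plus strand) encode surface proteins of co-stimulation, the first a membrane marker of activated antigen-presenting cells and the second the ligand of CD137. Cd83 stood at 870.2 CPM (860.2 to 880.4) and 836.7 CPM (824.1 to 849.5) in macrophage-like cells, and was found in 77.18% and 76.86% of them. It was lower in monocyte-like cells (298.9 and 213.9 CPM) and lowest in neutrophil-like cells (34.24 and 4.62 CPM). Dendritic cell-like cells (1035 and 921.2 CPM) and B cell-like cells (507.1 and 463.6 CPM) also held Cd83, while T cell-like cells were at 7.62 and 17.53 CPM. Within monocyte-like cells, the cluster led by Pglyrp1, Eno3 and Ace held more Cd83 (541.7 and 346.5 CPM) than the cluster led by S100a8, Ly6c2 and Stfa3 (193.3 and 136.3 CPM). Tnfsf9 was at 101.2 CPM (97.8 to 104.7) and 88.05 CPM (83.98 to 92.25) in macrophage-like cells, at 10.61 and 5.246 CPM in monocyte-like cells and at 2.824 and 3.3 CPM in neutrophil-like cells. Both co-stimulators were therefore highest in macrophage-like cells among macrophage-like, monocyte-like and neutrophil-like cells, in WT and KO.

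Nfkbia (chr12:55489410-55492647, minus strand) encodes IkB-alpha, the inhibitor that retains NF-kB in the cytoplasm, and Tnfaip3 (chr10:19000910-19015657, minus strand) encodes A20, a ubiquitin-editing enzyme that damps the pathway upstream. Nfkbia was at 1156 CPM (1144 to 1168) and 1159 CPM (1144 to 1174) in macrophage-like cells. It was lower in monocyte-like cells (649.2 and 600.2 CPM). In neutrophil-like cells it reached 2281 CPM (2226 to 2337) and 1221 CPM (1182 to 1261). Among macrophage-like, monocyte-like and neutrophil-like cells, the neutrophil-like class thus led in WT and stood close to macrophage-like cells in KO. Tnfaip3 was at 249.1 CPM (243.7 to 254.6) and 256.6 CPM (249.6 to 263.7) in macrophage-like cells and at 82.89 and 61.3 CPM in monocyte-like cells. In neutrophil-like cells its level was 246.7 CPM (228.8 to 265.7) in WT, with an interval overlapping that of WT macrophage-like cells, and 107.6 CPM (96.21 to 119.9) in KO. These inhibitors were not restricted to myeloid cells, since NK cell and ILC-like cells held Nfkbia at 1400 and 1363 CPM and Tnfaip3 at 719.1 and 626.9 CPM. The few mast cell and basophil-like cells (29 and 15) held Nfkbia at 3233 and 3099 CPM and Tnfaip3 at 1596 and 1236 CPM.

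Plau (chr14:20836660-20843385, plus strand) encodes urokinase, a secreted protease that activates plasminogen at the cell surface, and Sdc4 (chr2:164424247-164443887, minus strand) encodes the heparan sulphate proteoglycan syndecan-4. Plau stood at 135.9 CPM (131.9 to 139.9) and 89.94 CPM (85.84 to 94.19) in macrophage-like cells, against 3.411 and 5.04 CPM in monocyte-like and 1.412 and 3.96 CPM in neutrophil-like cells. It was found in 35.94% and 25.16% of the thinned macrophage-like cells. Sdc4 stood at 360.6 CPM (354.2 to 367.2) and 343.3 CPM (335.2 to 351.5) in macrophage-like cells, and at 3.538 and 5.863 CPM in monocyte-like cells. In T cell-like cells the level of Plau was 0.2241 and 0.6261 CPM. Sdc4 was also present in B cell-like cells, at 107.5 and 94 CPM.

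Gem (chr4:11704457-11714752, plus strand) encodes a small GTP-binding protein induced on activation, and Rgs1 (chr1:144242296-144249242, minus strand) encodes a regulator that shortens G protein signalling from chemokine receptors. Gem was at 35.53 CPM (33.52 to 37.63) and 22.5 CPM (20.47 to 24.67) in macrophage-like cells, and at 0.7581 and 1.337 CPM in monocyte-like cells. Its level was higher in B cell-like (385.8 and 382.3 CPM) and in NK cell and ILC-like cells (328.3 and 238.1 CPM). Rgs1 was at 153.1 CPM (148.9 to 157.4) and 179.8 CPM (174 to 185.7) in macrophage-like cells, at 19.08 and 10.8 CPM in monocyte-like cells, and at 353.3 and 349.2 CPM in NK cell and ILC-like cells. NK cell and ILC-like cells thus held more Gem and more Rgs1 than macrophage-like cells did. Mir155hg (chr16:84703167-84715245, plus strand) was sparse, at 20.7 CPM (19.17 to 22.31) and 14.52 CPM (12.9 to 16.28) in macrophage-like cells, where 5.705% and 4.503% of thinned cells held a UMI. In monocyte-like cells it was at 0.2527 and 0.3086 CPM. Mir155hg was not restricted to macrophage-like cells. It was at 26.17 and 23.61 CPM in B cell-like and at 23.85 and 30.17 CPM in NK cell and ILC-like cells. Dendritic cell-like cells held it at 35.01 and 80.64 CPM.

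**Figure D1:**
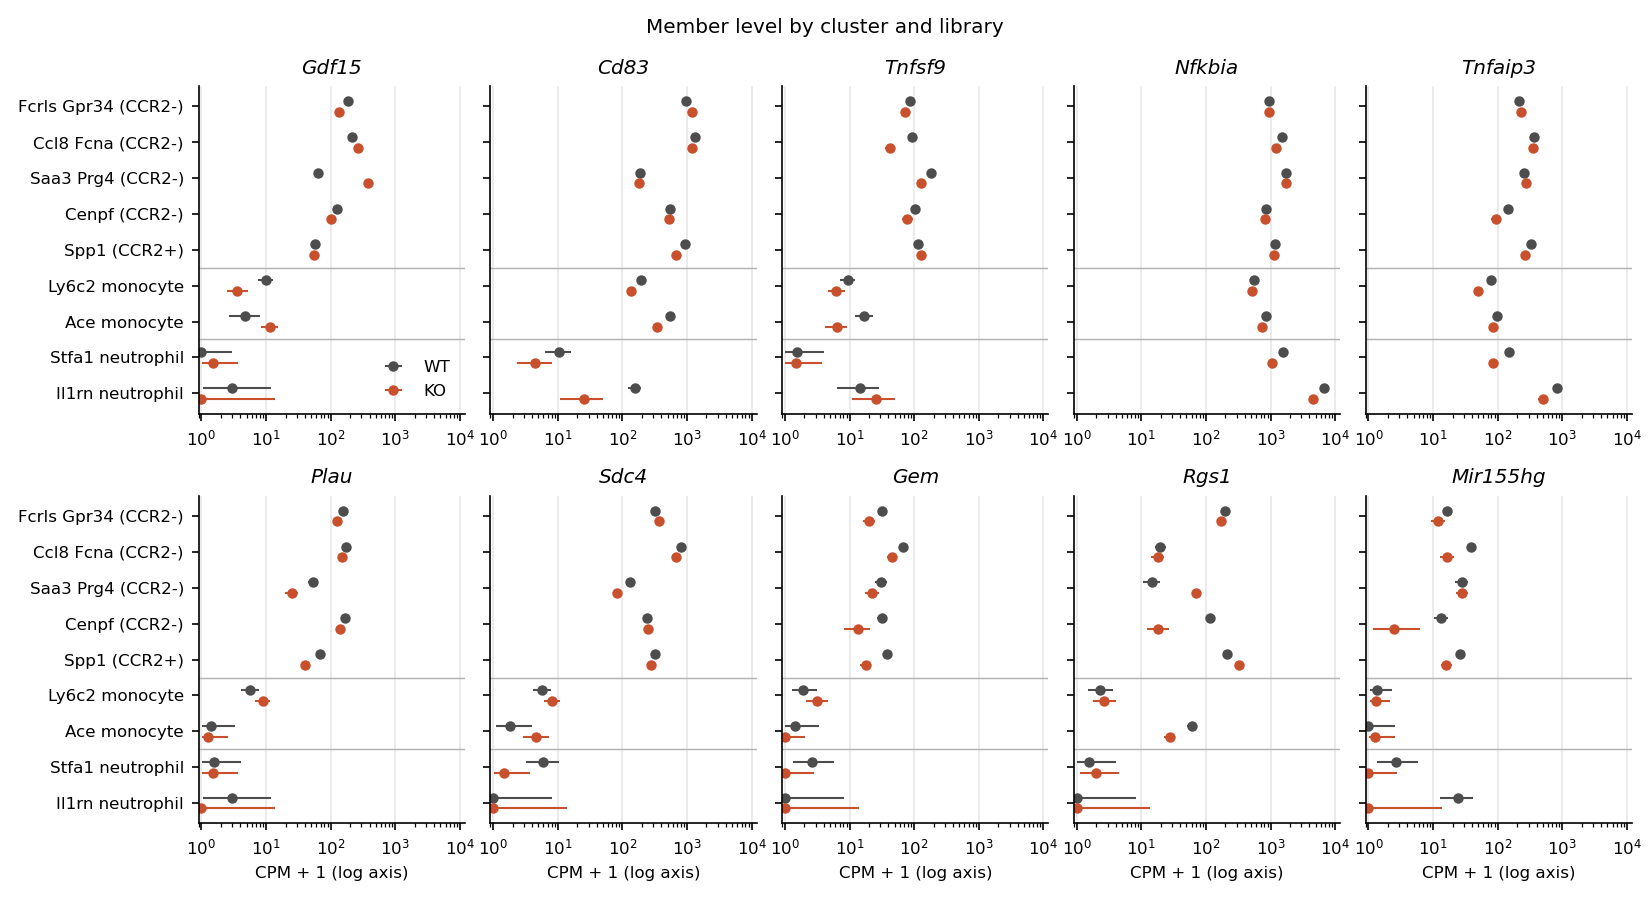
Level of each member (CPM + 1, log axis) in 5 macrophage-like, 2 monocyte-like and 2 neutrophil-like clusters, with WT in grey and KO in orange and bars for the exact 95% Poisson interval. Nfkbia stays high down to the neutrophil-like clusters, while Gdf15 falls from 184.2 CPM in the WT Fcrls cluster to 7.328 CPM over WT monocyte-like cells. Tnfaip3 is at 77.61 CPM (WT) and 48.76 CPM (KO) in the Ly6c2 monocyte-like cluster. In the neutrophil-like clusters it is at 147.5 and 83.32 CPM (Stfa1) and at 816.2 and 497.5 CPM (Il1rn).

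The members differed among macrophage subsets. The largest cluster, led by Fcrls, Gpr34 and Olfml3 (525 WT and 200 KO cells, CCR2-), held Gdf15 at 184.2 and 132.9 CPM and Cd83 at 974.9 and 1209 CPM. The cluster led by Ccl8, Fcna and Lyve1 (188 and 127 cells, CCR2-) held Gdf15 at 214.6 and 259.3 CPM, Cd83 at 1318 and 1202 CPM and Sdc4 at 795.3 and 672.4 CPM. It ranked first among the macrophage-like clusters by mean member level, although Rgs1 was low there (18.63 and 17.04 CPM). Rgs1 had its own order, with 515.2 and 735.1 CPM in the cluster led by Cd207, Vsig4 and Clec4f (70 and 18 cells), 193.8 and 169.1 CPM in the Fcrls cluster, and 13.51 and 68.92 CPM in the cluster led by Saa3, Prg4 and Marco (60 and 49 cells). The Saa3 cluster was low in Cd83 (182.9 and 177.6 CPM) and high in Nfkbia (1762 and 1749 CPM).

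Because the Ccl8 cluster was picked for its mean level of these genes, the members' values against the other macrophage-like cells are a description. It made up 14.9% of WT and 19.2% of KO macrophage-like cells, so that KO minus WT was 4.26 points (0.764 to 7.93). Compared with the other macrophage-like cells, 1 of the 10 members was at least 2-fold higher in the Ccl8 cluster in both libraries (Sdc4, mean log2 ratio 1.39) and 1 was at least 2-fold lower (Rgs1, -2.90). The background over 9657 genes was 1.11% higher and 2.65% lower. The median over the members, which the choice of the cluster raises, was 0.62 on the log2 scale, and that over all genes was -0.08. Gdf15 was at 214.6 CPM against 133.1 CPM in WT and at 259.3 against 142.5 CPM in KO. The other NF-kB genes had no part in choosing the cluster. Among 51 measured pathway genes 1 was at least 2-fold higher (Marcksl1, an actin-binding target, 1.30) and 5 were lower (Il6, Il1b, Tnip3, Traf1 and Bcl2a1a), with a median of 0.06. The summed level of cardiomyocyte markers was 246.8 and 165.9 CPM in the Ccl8 cluster and 104.2 and 63.5 CPM over all macrophage-like cells, and its part in these values was not tested. Which cluster ranked first depended on the clustering, since under other feature sets, stricter cell limits or a finer resolution another cluster did.

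Members were then counted per cell at 5000 UMIs. A macrophage-like cell held a median of 4 of the 10 members in each library, with means of 3.72 in WT and 3.65 in KO, and 4.156% of WT macrophage-like cells held none. At least 4 members were found in 54.69% (51.85 to 57.5, exact binomial) of WT and 52.95% (49.01 to 56.86) of KO macrophage-like cells. In monocyte-like cells this share was 2.025% and 1.806%, and in neutrophil-like cells 3 of 287 WT cells (1.045%) and 0 of 295 KO cells reached it, the latter allowing a share of up to 1.017%. The counts per cell were thus higher in macrophage-like than in monocyte-like and neutrophil-like cells of either library, which the choice of the members favours. An unnamed cluster led by Cd209a, H2-Eb1 and H2-Ab1 (36 and 34 cells), from the clustering of myeloid cells, was at 47.22% and 48.48%. B cell-like cells (30.86% and 25.23%), which hold Gem but little Rgs1 (6.543 and 11.75 CPM), lay between macrophage-like and monocyte-like cells. So did NK cell and ILC-like cells (39.63% and 27.2%), which hold both genes. T cell-like cells were at 6.433% and 5.054%.

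Among subsets, cells with at least 4 members made up 80.98% and 81.75% of the Ccl8 cluster, 65.22% and 64.71% of the Cd207 cluster, 48.45% and 52.28% of the Fcrls cluster and 47.46% and 34.04% of the Saa3 cluster. In CCR2- macrophage-like cells the share was 53.64% and 56.89%, and KO minus WT was 3.25 percentage points (95% interval -2.24 to 8.66). In CCR2+ cells it was 60.1% and 43.32%, and KO minus WT was -16.8 points (-26.3 to -6.8). That difference held only at some depths. Thinned to 2000 UMIs it was -2.18 points (-10.9 to 6.64), and without thinning the shares were 78.87% and 82.14%, with the KO cells deeper (medians of 24330 and 29110 UMIs).

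**Figure D2:**
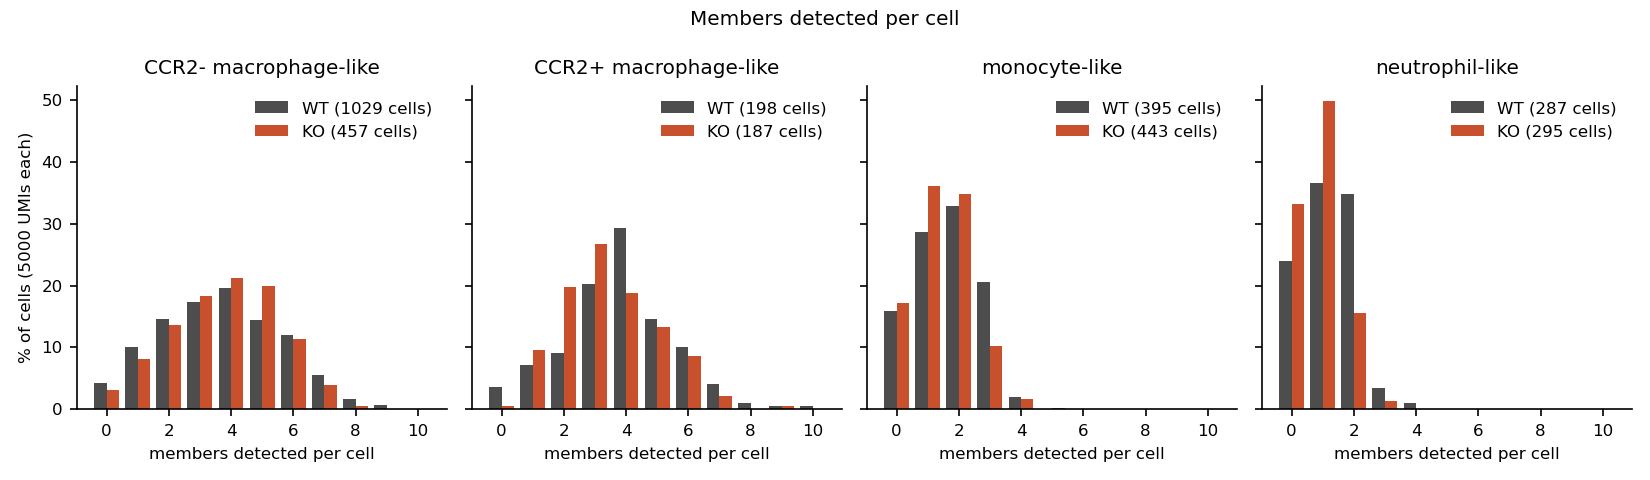
Share of cells (%) by the number of members detected per cell, each cell thinned to 5000 UMIs, in CCR2- and CCR2+ macrophage-like, monocyte-like and neutrophil-like cells, WT in grey and KO in orange. Macrophage-like cells spread around 4 members, whereas at least 4 members were reached by 2.025% of WT monocyte-like and 1.045% of WT neutrophil-like cells.

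Detection of one member was then set against detection of another in the same thinned cells. For each of the 45 pairs the number of cells with both was divided by the number expected from the single shares, and pairs with at least 3 expected cells were used. In WT macrophage-like cells 44 of 45 pairs lay above 1, with a median ratio of 1.2, and in KO 40 of 44 lay above 1, with a median of 1.13. The lower limit of the ratio was above 1 for 30 WT and 9 KO pairs. KO had fewer thinned cells (644, against 1227 in WT), which widens its limits. Members were therefore found together somewhat more often than their single shares give, in cells of equal depth. The choice of the members as genes of 1 macrophage state favours this. The ratio cannot be large for genes found in most cells, such as Nfkbia, and differences between subsets enter it.

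The pairs furthest above 1 joined the sparser members. Tnfsf9 and Mir155hg were found together in 33 WT macrophage-like cells, 2.45 times the expected number (1.69 to 3.42). Gem and Mir155hg shared 15 WT cells, at a ratio of 2.33 (1.31 to 3.82). Gdf15 and Tnfsf9 were both present in 5.22% of WT cells against 3.26% expected, a ratio of 1.6 (1.24 to 2.03). The ratio of Gdf15 and Gem was similar in the libraries, at 1.77 (1.23 to 2.47) in WT and 1.78 (1.02 to 2.87) in KO, and so was that of Tnfsf9 and Tnfaip3, at 1.52 (1.31 to 1.75) and 1.41 (1.13 to 1.73). A WT macrophage-like cell with a Gdf15 UMI held on average 4.6 of the other 9 members and one without it 3.34, and in KO these means were 4.1 and 3.31. For Mir155hg the means were 5.33 with and 3.56 without in WT, and 4.79 and 3.55 in KO.

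Co-detection was also taken within single CCR2- clusters. In the Fcrls cluster all 44 usable WT pairs lay above 1, with a median ratio of 1.29, and 34 of 36 KO pairs, with a median of 1.18. There Gdf15 and Tnfsf9 had a ratio of 2.07 (1.34 to 3.04) in WT and 1.95 (0.848 to 3.76) in KO, and Tnfsf9 and Tnfaip3 a ratio of 1.83 (1.39 to 2.35) and 1.81 (1.14 to 2.69). In the Ccl8 cluster, where the members were at their highest mean level, the median ratio was 1.04 in WT and 1.01 in KO, and 0 of 42 and 0 of 35 pairs had a lower limit above 1. Nfkbia was in 175 and Cd83 in 171 of the 184 thinned WT cells of the Ccl8 cluster, which holds their ratios near 1, while Gdf15 was in 56 and Mir155hg in 17. The Ccl8 cluster also had fewer cells than the Fcrls cluster (184 and 516 in WT), which widens the limits, and the difference between the clusters was not tested. Cells of the Fcrls cluster with Gdf15 held on average 4.7 other members in WT and 4.44 in KO, against 3.12 and 3.11 in its cells without Gdf15, while in the Ccl8 cluster the means were 4.93 and 4.25 against 4.38 and 4.19.

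**Figure D3:**
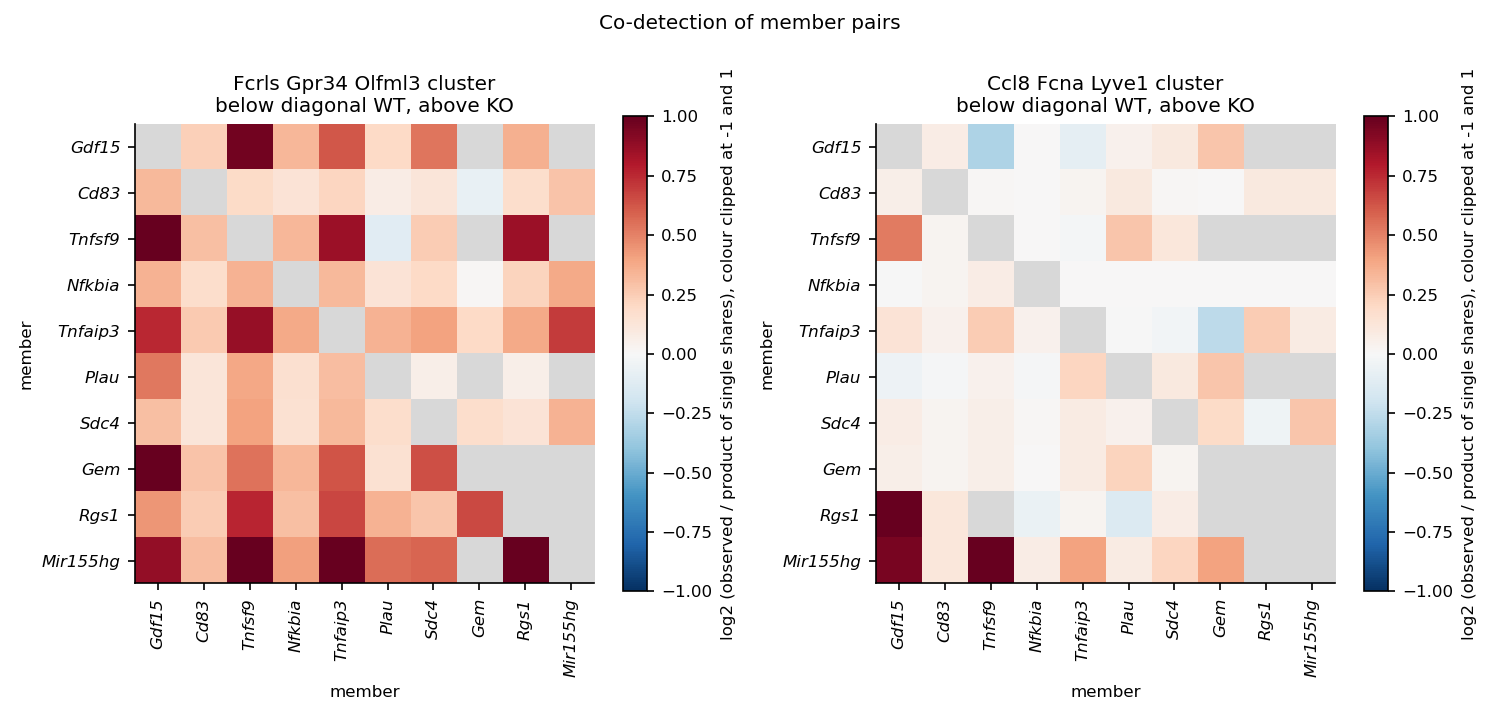
Observed over expected co-detection of each member pair (log2 colour scale, held at 1 in either direction) in the Fcrls and Ccl8 clusters at 5000 UMIs per cell, with WT below and KO above the diagonal and pairs under 3 expected cells in grey. The Fcrls cluster is mostly red, with WT and KO medians of 1.29 and 1.18 before the log, and the Ccl8 cluster is mostly pale, with 1.04 and 1.01.

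When the members and all other variable genes were allowed into the clustering, one macrophage-like cluster was led by 7 members. Its 10 leading genes were Gdf15, Cxcl1, Gem, Tnfsf9, Ccl4, Cd83, Plau, Ccl12, Sdc4 and Mir155hg. It held 155 WT cells, 12.25% (10.5 to 14.19) of the macrophage-like cells of that clustering, and 62 KO cells, 9.309% (7.212 to 11.78), so that KO minus WT was -2.94 points (-5.7 to 0.0315). These member-led cells fell mainly in the Fcrls cluster of the clustering without the members (137 WT and 56 KO cells), where they made up 26.1% and 28% of it. A total of 12 WT and 4 KO cells were in the CCR2+ cluster led by Spp1, and 2 and 2 in the Ccl8 cluster. The member-led cells were as deep as the other cells of the Fcrls cluster, with medians of 22640 and 23210 UMIs against 21630 and 22690, and at least 4 members were found in 95.39% and 93.44% of them against 32.2% and 36.62%.

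Because the member genes and the listed pathway genes took part in choosing these cells, the values of the member-led cells against the other cells of the Fcrls cluster are a description. Gdf15 stood at 583.9 against 35.11 CPM in WT and at 349.7 against 48.97 CPM in KO. Tnfaip3 stood at 493.2 against 106.4 CPM and 456.3 against 136.6 CPM, and Tnfsf9 at 224.4 against 34.76 CPM and 131 against 48.67 CPM. Rgs1 was the member that differed between the libraries in direction, with 310.2 against 150.4 CPM in WT and 144 against 178.8 CPM in KO. Of the 8 members above the count minimum in this contrast, 6 were at least 2-fold higher in both libraries, with a background of 1.84% of 6097 genes higher and 0.23% lower. Gem (78.01 against 12.47 CPM in WT, 57.14 against 4.425 CPM in KO) and Mir155hg (54.8 against 0.5774 CPM in WT, 39.62 CPM against none counted in KO) were below the minimum.

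Other genes of the NF-kB pathway, taken from a list of its subunits, inhibitors, kinases and targets, were higher in the same cells. Of the 41 measured, 18 were at least 2-fold higher in both libraries, none was lower, and all 41 had a mean ratio above 0, with a median of 1.09 on the log2 scale against -0.09 over all genes. Among the subunits, Nfkb1, the precursor of p50, stood at 602.1 against 159 CPM in WT and 836.5 against 174 CPM in KO, and Rel at 535.6 against 125.4 CPM and 627.8 against 159.9 CPM. Rela, the constitutive subunit, was at 60.37 against 50.47 CPM and 60.19 against 55.75 CPM. The inhibitor Nfkbie was at 120.1 against 29.68 CPM and 121.1 against 32.74 CPM. The 5 measured kinases and adaptors had 0 members past 2-fold and a median of 0.17. Within each role the genes differed, with 2 of 5 subunits and 3 of 8 inhibitors past 2-fold in both libraries and the inhibitor Cyld at a mean ratio of 0.07.

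Among the targets, the neutrophil chemokine Cxcl1 stood at 388.8 against 33.61 CPM in WT and 459.4 against 34.22 CPM in KO, and the related chemokine Cxcl2 at 3784 against 537.6 CPM and 2626 against 544.2 CPM. The cytokine Il1a was at 196.6 against 23.56 CPM and 213.3 against 22.12 CPM. The survival gene Bcl2a1b was at 1273 against 309.4 CPM and 1582 against 386.1 CPM, though it has near-identical copies between which reads can be split. Chemokines, a cytokine and a survival gene of the pathway were all higher in the member-led cells of both libraries.

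Immediate early genes, which respond to stimulation and also to cell isolation, were mixed. Of 24 measured, 8 were at least 2-fold higher in both libraries, with a median of 0.50. Maff stood at 114.5 against 17.9 CPM in WT and 95.23 against 14.45 CPM in KO, Fosl2, an AP-1 subunit, at 249.2 against 58.09 CPM and 277.3 against 76.4 CPM, and the nuclear receptor Nr4a1 at 1269 against 419.3 CPM and 1259 against 447.2 CPM. Heat shock genes did not share this pattern. None of the 7 was 2-fold higher in both libraries, the median was -0.58, and Hspa1b stood at 769.6 against 1370 CPM in WT and 105.9 against 1135 CPM in KO. Gdf15 is also a known target of ATF4, CHOP and p53, and of the 11 measured genes of those responses 1 was at least 2-fold higher (Cdkn1a, a cell cycle inhibitor, 1040 against 415.3 CPM and 999.5 against 317.4 CPM) and 2 were lower (Ddit4 and Sesn1), with a median of -0.08. Of 10 receptors, inhibitors and other partners of the members, 1 was higher, the urokinase receptor Plaur, at 211.8 against 77.03 CPM in WT and 169.1 against 67.85 CPM in KO. The mitochondrial share of UMIs was 1.92% and 2.04% in the member-led cells and 2.25% and 2.03% in the others, and cardiomyocyte markers summed to 95.66 and 76.19 CPM against 71.02 and 56.64 CPM. The part of cell isolation in these values was not tested.

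**Figure D4:**
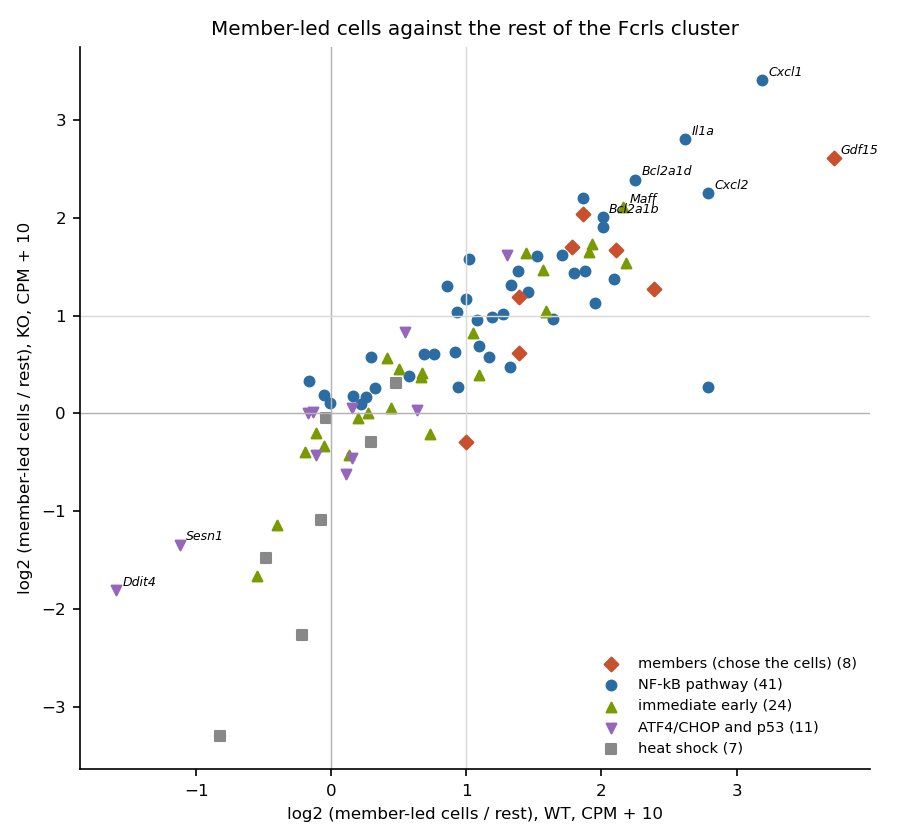
Log2 ratio of member-led cells over the other cells of the Fcrls cluster in WT (x axis) and KO (y axis), on CPM + 10, for genes of 5 lists, with grey lines at 0 and at 1 (2-fold). NF-kB pathway genes lie mainly to the upper right, with 18 of 41 past 2-fold in both libraries, and the heat shock genes have a median of -0.58.

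The study's comparison was KO against WT. Over all macrophage-like cells 0 of the 10 members differed by 2-fold in either direction, where 0.345% of 11315 genes were at least 2-fold higher and 0.124% at least 2-fold lower in KO. The median log2 ratio of the members was -0.06 and that of all genes -0.07, and 6 members lay below 0. Nfkbia (1156 and 1159 CPM) and Tnfaip3 (249.1 and 256.6 CPM) had ratios of 0.00 and 0.04, each with an interval that includes 0. Plau (135.9 and 89.94 CPM, log2 -0.55, -0.62 to -0.47), Gem (35.53 and 22.5 CPM, -0.49, -0.60 to -0.37) and Mir155hg (20.7 and 14.52 CPM, -0.32, -0.45 to -0.20) were the members furthest below. Plau was lower in KO in both female (-0.48) and male cells (-0.62), told apart by Xist and Y-linked UMIs and so from different hearts of each pool, and so was Gem (-0.52 and -0.39). The makeup of the class differed between the libraries, since CCR2+ cells, which held less Plau, were 213 of 1262 WT and 196 of 663 KO cells. Within clusters the Plau ratio was -0.27 in the Fcrls cluster and -0.18 in the Ccl8 cluster (0.06 in its male cells). In the CCR2+ cluster it was -0.66 (0.05 in female and -1.05 in male cells).

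Gdf15 did not keep its direction between female and male cells. In macrophage-like cells it was 164.7 CPM in KO against 145.9 CPM in WT over all cells (0.16), 108.9 against 154.5 CPM in female cells (-0.47) and 206.7 against 140.3 CPM in male cells (0.53). In CCR2- macrophage-like cells the ratio was 0.35 over all cells, -0.47 in female cells (132.5 against 187.7 CPM) and 0.81 in male cells (272.2 against 150.5 CPM). In CCR2+ cells the order was the other way, with 1.28 in female cells (46.26 against 13.18 CPM) and -0.48 in male cells (57.35 against 83.81 CPM). In KO macrophage-like cells the gap between the sexes was wider than the gap between the libraries over all cells. The CCR2- class also pooled clusters with different Gdf15 ratios. Among its clusters with at least 30 cells in both libraries, the Saa3 cluster (60 and 49 cells) was at 2.40 and the Ccl8 cluster at 0.26. The Fcrls cluster was at -0.44 and the cluster led by Cenpf at -0.28. The part of the Saa3 cluster in the class ratios was not tested.

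By subset, the members of CCR2- macrophage-like cells had a median ratio of -0.12 (all genes -0.06) and again none past 2-fold, against 0.356% of 10967 genes higher and 0.119% lower. In CCR2+ cells 8 of 10 members were below 0 and the median was -0.25 (all genes -0.04), with none past 2-fold, where 0.322% of 8078 genes were higher and 0.322% lower. Cd83 was at 924.9 CPM and 675.3 CPM in CCR2+ cells (-0.45, -0.51 to -0.39) and Plau at 68.07 and 39.37 CPM (-0.66, -0.86 to -0.46), whereas Rgs1 was higher in KO, at 207.6 and 325.6 CPM (0.63, 0.52 to 0.73). The median changed sign between the sexes of the CCR2+ cells, at 0.169 in female and -0.492 in male cells. The Plau ratio did too, at 0.05 in female and -1.05 in male cells.

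The ratios were also taken within single macrophage clusters, and differences between the clusters were not tested. In the Ccl8 cluster 9 of 10 members were below 0, with a median of -0.21 (all genes -0.06), and none was past 2-fold, against 0.197% of 7626 genes higher and 0.21% lower. Tnfsf9 came closest, at 90.6 and 40.64 CPM (-0.99, -1.21 to -0.77), and was lower in KO in both female (-1.46) and male cells (-0.54), as was Mir155hg, at 38.03 and 15.47 CPM (-0.92, with -0.82 and -1.07). In the Fcrls cluster 7 members were below 0, with a median of -0.21 (all genes -0.02), and none was past 2-fold, against 0.0534% of 9360 genes higher and 0.224% lower. There Cd83 was higher in KO (974.9 and 1209 CPM, 0.31), also in female (0.34) and male cells (0.26), and Gdf15 was lower (184.2 and 132.9 CPM, -0.44), also in female (-0.68) and male cells (-0.55).

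The small Saa3 cluster had 2 of 10 members at least 2-fold higher in KO and 0 lower, where 0.862% of 6264 genes were higher and 0.798% lower. Gdf15 was at 62.34 and 371.3 CPM (2.40, 2.20 to 2.60) and Rgs1 at 13.51 and 68.92 CPM (1.75, 1.42 to 2.06). In the cluster of dividing cells led by Cenpf, Ccnb2 and Cdc20 (149 and 39 cells) Rgs1 was the 1 member of 9 at least 2-fold lower (113.8 and 17.38 CPM, -2.18, -2.57 to -1.77), and 0 were higher, where 0.11% of 7270 genes were higher and 0.371% lower. The Gdf15 ratio was thus on opposite sides of 0 in the Fcrls and Saa3 clusters, and only in the Saa3 cluster past 2-fold.

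In monocyte-like cells 6 members passed the count minimum and all 6 were below 0, with a median of -0.41 (all genes 0.01). The median was -0.068 in female cells, -0.138 with no count minimum and -0.211 with no doublets left out, and Plau (0.17) and Sdc4 (0.23), under the minimum, were above 0. None was past 2-fold, against 0.0342% of 8763 genes higher and 0.205% lower. Cd83 was at 298.9 CPM and 213.9 CPM (-0.46) and Tnfaip3 at 82.89 and 61.3 CPM (-0.38). Cd83 had a ratio of 0.04 in female and -0.67 in male monocyte-like cells, and Rgs1 one of 0.69 and -1.63, so the direction was not shared by the sexes for these genes.

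Among macrophage-like, monocyte-like and neutrophil-like cells taken as whole classes, neutrophil-like cells had the members' median furthest from 0, at -1.13 over 3 members (all genes -0.01). Of the 3 members above the count minimum all were lower in KO, and 2 of them at least 2-fold, where 0.252% of 4757 genes were at least 2-fold higher and 0.673% lower. Tnfaip3 was at 246.7 CPM and 107.6 CPM (log2 -1.13, -1.31 to -0.95), Nfkbia at 2281 and 1221 CPM (-0.90, -0.96 to -0.84), and Cd83 at 34.24 and 4.62 CPM (-1.60, -1.88 to -1.24). The Cd83 values rest on 97 and 14 UMIs, of which 1 cell gave 38.1% in WT and 28.6% in KO. Nfkbia was lower in KO in female (-0.83) and male cells (-1.01), while Tnfaip3 was lower mainly in male cells (-1.21, 123.9 against 299.7 CPM) and had -0.12 in female cells (131 against 143.6 CPM). Mir155hg had 15 UMIs in WT neutrophil-like cells and 0 in KO.

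The neutrophil-like class was a mixture whose makeup differed between the libraries. The cluster led by Il1rn, Acod1 and Csf1, with Nfkbia at 6626 CPM and 4575 CPM, held 79 of 351 WT and 47 of 337 KO neutrophil-like cells. The cluster led by Stfa1, Stfa2l1 and S100a9 (251 and 262 cells) held Nfkbia at 1559 and 1041 CPM. Within each cluster the ratio was smaller than over the class but on the same side, at -0.53 in the Il1rn cluster and -0.58 in the Stfa1 cluster for Nfkbia, and at -0.70 (816.2 and 497.5 CPM) and -0.76 (147.5 and 83.32 CPM) for Tnfaip3. In the Camp cluster of granule-rich cells (21 and 28 cells) Nfkbia was at 377.2 and 334 CPM. Both members above the count minimum were below 0 and none past 2-fold in either cluster, against 1.41% of 1344 genes higher and 2.46% lower in the Il1rn cluster and 0.154% of 3900 genes higher and 0.256% lower in the Stfa1 cluster. In female cells of the Stfa1 cluster Tnfaip3 was on the other side, at 0.44 (101.6 and 141.1 CPM).

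**Figure D5:**
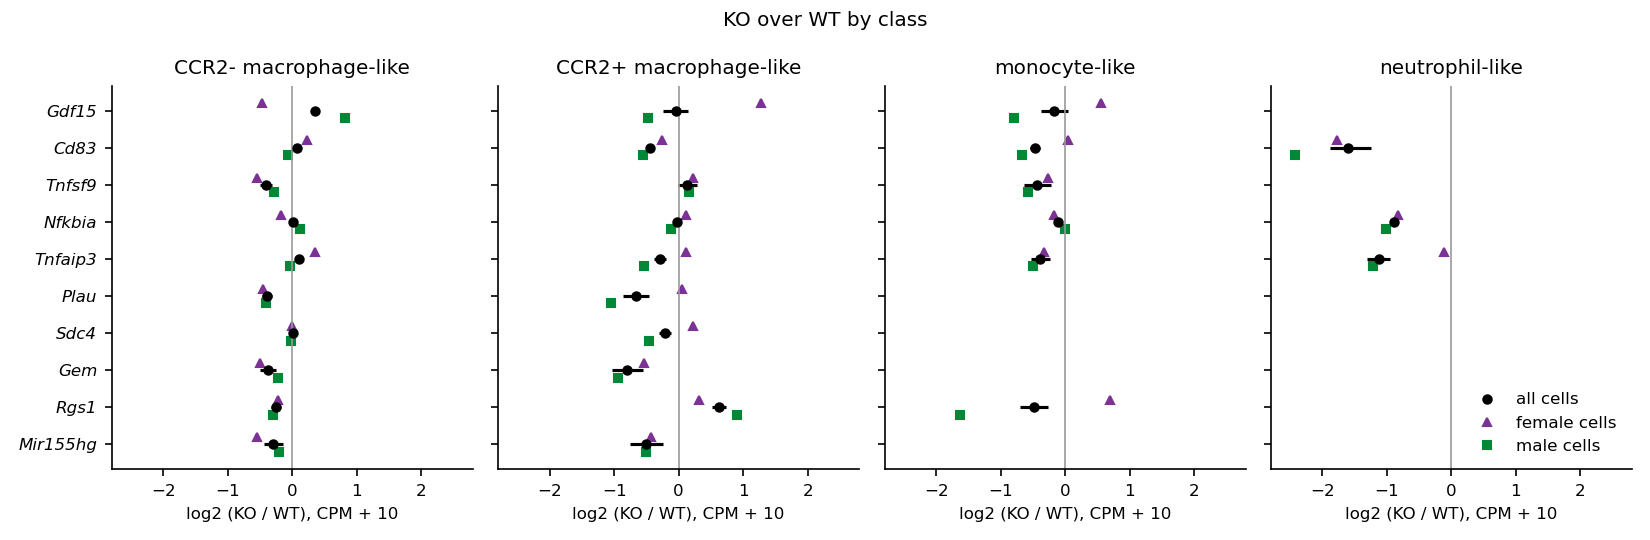
KO over WT log2 ratio of each member above the count minimum (CPM + 10) in 4 classes, for all cells (black, with the counting interval), female cells (purple) and male cells (green). Nfkbia in neutrophil-like cells is below 0 in both sexes (-0.83 and -1.01), while Gdf15 in CCR2- macrophage-like cells lies at -0.47 in female and 0.81 in male cells.

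Other NF-kB genes also differed little between the libraries in macrophage-like cells. Of 53 measured, 1 was at least 2-fold higher in KO (the cytokine Il6, 25.52 and 81.71 CPM, log2 1.37) and none was lower. Over 11315 genes, 0.345% were higher and 0.124% lower. Of the 53, 35 lay above 0 and the median was 0.08 (all genes -0.07). Tnfaip2 had a ratio of 0.73 and Tnf, the cytokine, one of -0.51 (307.3 and 212.4 CPM). Of 26 immediate early genes none was past 2-fold, with a median of -0.02, and Egr1 was at 615.3 and 390.1 CPM (-0.64). All 8 heat shock genes lay below 0, with a median of -0.45, and Hspa1b was at 885.7 and 498.4 CPM (-0.82). Of 19 ATF4, CHOP and p53 response genes none was past 2-fold, with a median of 0.00. Among 17 partners of the members, Serpinb2, an inhibitor of urokinase, was higher in KO (47.25 and 283.5 CPM, 2.36). Il6 and Serpinb2 were both among the 10 leading genes of the Saa3 cluster. That cluster held 60 of 1262 WT and 49 of 663 KO macrophage-like cells, and the part of this makeup in the 2 ratios was not tested.

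Finally, genes were ranked by how closely their level followed the mean of the members across the 9 myeloid clusters with at least 30 cells in both libraries, over 10229 genes. The closest was Lrp12, with a Pearson r of 0.994 in WT and 0.985 in KO, followed by Igf1, Rgl1 (0.97 and 0.973), Slc7a8 (0.973 and 0.968), Zdhhc14 (0.979 and 0.967), C3ar1 (0.967 and 0.968), Snx24, Psd3, Vat1 and Sbf2. Against the mean of the other 9 members, Gem (0.938 and 0.93), Plau (0.931 and 0.829), Sdc4 (0.93 and 0.927) and Gdf15 (0.921 and 0.883) followed closely. Rgs1 (0.592 and 0.684) and Tnfaip3 (0.316 and 0.476) followed less, and Nfkbia did not (-0.143 and -0.0358). These correlations are descriptions over 9 clusters that share their library, and they mostly separate macrophage-like from other clusters.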

How the data were processed

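Per the labels, both libraries were made with version 3 of the 10x Chromium GEM-X kit for 5′ ends, and the submitters' processing notes name Cell Ranger 8.0.1 and mm10. The authors deposited UMI counts per gene and barcode (5713 WT and 5285 KO barcodes, 67968938 and 61555917 UMIs), with no normalization and no cell annotation. Barcodes were kept from 500 genes and 250 UMIs upward, where mitochondrial UMIs made up no more than 30%. The highest scrublet scores (scanpy 1.11.5) were left out as doublets at 0.4% per 1000 barcodes, 98 WT and 73 KO barcodes, since the automatic threshold marked 1 and 4. Cells were integrated by CCA and clustered in Seurat 5.3.0 (R 4.3.3) with 2000 variable genes, 30 dimensions, 20 neighbours, resolution 0.8 and cell cycle scores regressed, first all cells and then myeloid cells. The members, the listed genes, Lyve1 and sex-linked genes (153 in all) were kept out of the features. In the first step 1 cluster of 337 cells (209 WT and 128 KO) was nearest to the cardiomyocyte markers. All 13 macrophage markers were each found in at least 25% of its cells, and it was clustered again with the myeloid cells. The rule that scored clusters against markers was set after the data were seen. The 10 members and the gene lists were chosen with earlier results of these data known.

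Levels are CPM of summed UMIs with exact Poisson intervals. Ratios are log2 of CPM + 10, which understates changes of low genes, for genes with at least 100 UMIs over both libraries. With 1 library per genotype no test was run, and called means at least 2-fold. Shares have exact Clopper-Pearson intervals and differences Newcombe intervals, all at 95%. A floor of 3 counts was used for 0. UMIs count molecules, and intervals cover counting error only. Cells were taken as female with Xist and no Y-linked UMIs and as male with the reverse. Genes named besides the members were, from each role of a list, up to 2 with the largest change in the Ccl8 cluster, up to 2 of each list with the largest KO over WT change, the leading genes of clusters and the 10 most like the members. Nfkb1, Rel, Rela, Nfkbie, Cxcl1, Cxcl2, Il1a, Bcl2a1b, Maff, Fosl2, Nr4a1, Cdkn1a, Ddit4, Sesn1 and Plaur were named after their values were seen. Positions are from GENCODE M21 and sequences from RefSeq, both on GRCm38. The scripts, in Python 3.11.15 with numpy 2.4.6, scipy 1.17.1, pandas 2.3.3 and matplotlib 3.10.9, were tested on simulated counts. A total of 17 alternatives were tried.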

Additional observations from a re-analysis of the deposited data

Results flagged for a closer look

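The KO over WT ratio of Gdf15 went opposite ways in different CCR2- macrophage clusters, in female and in male cells alike. On the log2 scale it was 2.4 in the Saa3 cluster (62.34 CPM for WT, 371.3 CPM for KO) and -0.442 in the Fcrls cluster (184.2 and 132.9 CPM). The Saa3 values rest on 180 and 1056 UMIs, of which 1 cell gave 38.9% in WT and 19.2% in KO, and the share of its thinned cells with Gdf15 was 11.86% and 34.04%. Its female values rest on only 16 WT and 9 KO cells.

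Rgs1 also went opposite ways in different macrophage clusters, in the same direction in female and male cells of each. Its log2 ratio was 0.625 in the Spp1 cluster, 1.75 in the Saa3 cluster (13.51 and 68.92 CPM, with 1 cell giving 35.9% and 36.2% of the UMIs), -2.18 in the Cenpf cluster (113.8 and 17.38 CPM, 529 and 24 UMIs) and -0.187 in the Fcrls cluster. The sexes were compared on few cells, with 9 female KO cells in the Saa3 cluster and 15 male KO cells in the Cenpf cluster. With 1 library per genotype none of these differences between clusters was tested.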

How the results depend on the processing

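Over the 17 alternatives, 125 values that answer a comparison stayed within their counting interval or kept their call, 18 moved further and 6 reversed. For single members in single classes 289 values stayed and 90 moved. The cause of the moves was not tested. The share of macrophage-like cells in the cluster with the highest member level was 4.26 points higher in KO as reported, and -2.94 with all variable genes used, -2.65 with only the members, Lyve1 and sex-linked genes kept out (an alternative chosen after seeing the data), -2.88 under stricter cell limits (1000 genes, 10% mitochondrial), and -7.63 at resolution 1.2, each time for a different cluster. The share of CCR2+ cells with at least 4 members (-16.8 points) was 3.27 without thinning, -2.18 at 2000 UMIs and -6.21 for at least 5 members. For macrophage-like cells (-1.74) it was 4.84 without thinning. For monocyte-like cells (-0.219) it was -3.52 at 10000 UMIs, -4.35 without thinning and -10.6 for at least 3 members, and for neutrophil-like cells (-1.05) -3.17 for at least 3 members and -4.55 in female cells.

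The members' median KO over WT log2 ratio in female cells was -0.188 in macrophage-like (-0.0627 over all cells), -0.336 in CCR2- (-0.119), 0.169 in CCR2+ (-0.247), -0.068 in monocyte-like (-0.408) and -0.831 in neutrophil-like cells (-1.13), and in male cells -0.128 in macrophage-like and -0.492 in CCR2+ cells. It was -0.21 in CCR2- cells without cell cycle regression, -0.211 in monocyte-like cells with no doublets left out, and -0.138 in monocyte-like and -0.225 in neutrophil-like cells with no count minimum. No paired analysis was possible because each genotype has 1 library. Plau, Sdc4, Gem and Mir155hg in monocyte-like cells and 7 members in neutrophil-like cells had fewer than 100 UMIs and were left out of the medians.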
